A study of Mus musculus with 6 samples.

Results

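The loci of *Rab4a*, *Ptpn13*, *Lyn* and *Tbc1d4* were examined for open chromatin in splenic Tregs, the T cells that carry FOXP3 and restrain other immune cells. Members were all regions of the deposited peak lists that overlapped the body of 1 of these 4 genes with 10 kb on each side. They came to 59 of the 104845 regions of both lists together. The Foxp3creCREBfl/fl list held 58 of its 94499 regions there and the CREBfl/fl list 51 of its 100771, and *Rab4a* had 8, *Ptpn13* 21, *Lyn* 3 and *Tbc1d4* 27 of the 59 joined regions. The study lists the 4 genes among those that tell ST2+ from ST2- Tregs, ST2 being the receptor for IL-33. The regions were chosen by the peak calls of these lists, and the genes with earlier values of these mice known, so all values that set Foxp3creCREBfl/fl beside CREBfl/fl here are a description and carry no test.

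Tregs of Foxp3creCREBfl/fl mice were compared with those of CREBfl/fl mice by ATAC-seq, in which a transposase cuts DNA that is not covered by nucleosomes and sites of many cuts are called as peaks. In Foxp3creCREBfl/fl mice the Cre recombinase is expressed from the Foxp3 gene and removes the floxed part of CREB, a transcription factor activated by cAMP, in FOXP3+ cells. CREBfl/fl mice carry the floxed alleles without Cre, and the labels call the groups KO and WT. Mice of both groups were 6 to 12 weeks old, the labels name 3 libraries for each group, and 1 peak list per group was used here, so no spread between mice could be computed. As bulk samples, a lower peak can mean fewer cells with an open site or less opening per cell, and these cannot be told apart.

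The 4 proteins act in membrane traffic and tyrosine phosphorylation. RAB4A is a small GTPase of early endosomes that sends receptors back to the cell surface by the fast recycling route. TBC1D4, also called AS160, is a GTPase-activating protein for RAB GTPases and is best known as the AKT substrate that holds back the glucose transporter GLUT4 until insulin acts. PTPN13 is a large non-receptor tyrosine phosphatase with PDZ domains. LYN is a Src family kinase of B cells and myeloid cells, where it both starts and limits receptor signaling, while LCK and FYN are the main members of that family in T cells.

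Sequences of 5 regions are given first because the values below turn on them. Each is the 200 bases around the summit of the CREBfl/fl peak, or of the Foxp3creCREBfl/fl peak where that list alone had one, on the + strand of GRCm38. Capitals mark exact matches, on either strand, of the words searched in all regions. These words were the cAMP response element (CRE) TGACGTCA, its half-site TGACG, the AP-1 word TGAGTCA, the RUNX word TGTGGTT, the ETS words ACAGGAAG and CCGGAAG, the forkhead word TGTTTAC, the GATA word AGATAAG, the SP/KLF word GGGCGG, the NFY word CCAAT and a core of the CTCF motif. The half-site lies within the CRE.
Rab4a, 1.2 kb downstream of the start (chr8:123807081-123807280): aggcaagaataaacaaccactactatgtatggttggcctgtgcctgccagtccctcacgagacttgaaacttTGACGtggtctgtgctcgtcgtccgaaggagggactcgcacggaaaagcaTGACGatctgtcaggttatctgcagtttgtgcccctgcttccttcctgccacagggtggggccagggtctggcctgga
Ptpn13, 72.4 kb downstream (chr5:103497523-103497722): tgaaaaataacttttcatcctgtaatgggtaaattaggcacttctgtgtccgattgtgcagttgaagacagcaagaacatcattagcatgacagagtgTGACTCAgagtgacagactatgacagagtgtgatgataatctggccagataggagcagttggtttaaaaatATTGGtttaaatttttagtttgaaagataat
Ptpn13, 93.7 kb downstream (chr5:103518772-103518971): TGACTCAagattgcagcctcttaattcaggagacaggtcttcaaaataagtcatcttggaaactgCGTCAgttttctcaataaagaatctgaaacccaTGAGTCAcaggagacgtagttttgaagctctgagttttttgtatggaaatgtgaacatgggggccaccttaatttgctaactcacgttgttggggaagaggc
Lyn, 132 kb downstream (chr4:3810342-3810541): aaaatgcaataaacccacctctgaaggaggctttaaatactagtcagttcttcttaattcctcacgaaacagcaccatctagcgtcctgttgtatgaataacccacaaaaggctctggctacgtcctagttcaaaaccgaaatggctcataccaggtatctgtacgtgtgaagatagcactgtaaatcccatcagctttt
Tbc1d4, 121 kb downstream (chr14:101488386-101488585): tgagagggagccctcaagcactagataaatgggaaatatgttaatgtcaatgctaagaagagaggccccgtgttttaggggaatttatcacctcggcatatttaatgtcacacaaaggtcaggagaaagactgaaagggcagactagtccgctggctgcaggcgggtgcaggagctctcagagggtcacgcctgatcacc

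The *Rab4a* window held 2 CRE half-sites on the + strand and 8 CpG. The *Ptpn13* window at 72.4 kb held 1 AP-1 word and 1 NFY word, and the window at 93.7 kb held 2 AP-1 words and 1 half-site. No searched word was found in the *Lyn* and *Tbc1d4* windows shown. A match is a description of the letters, not evidence of a bound factor.

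RefSeq start-site sequences, from 250 bases before to 50 after the start, were matched for 2 of the 4 genes in the table of build GRCm38.p6. Both are shown 5′ to 3′ along the gene because their start-site peaks are compared below. *Rab4a* and *Lyn* had no entry.
Ptpn13 (chr5:103424942-103425241, + strand): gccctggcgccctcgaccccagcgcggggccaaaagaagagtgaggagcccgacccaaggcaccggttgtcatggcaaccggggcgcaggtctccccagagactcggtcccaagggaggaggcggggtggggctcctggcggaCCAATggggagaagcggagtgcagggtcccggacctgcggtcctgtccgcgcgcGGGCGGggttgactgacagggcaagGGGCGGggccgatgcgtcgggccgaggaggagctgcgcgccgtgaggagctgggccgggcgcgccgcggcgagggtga
Tbc1d4 (chr14:101609142-101609441, - strand): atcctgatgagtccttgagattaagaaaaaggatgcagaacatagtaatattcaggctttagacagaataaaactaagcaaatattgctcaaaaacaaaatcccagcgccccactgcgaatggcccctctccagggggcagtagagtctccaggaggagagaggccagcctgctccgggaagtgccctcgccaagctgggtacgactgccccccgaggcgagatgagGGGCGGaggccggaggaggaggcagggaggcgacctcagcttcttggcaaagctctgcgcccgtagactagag

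The *Ptpn13* start site held 33 CpG, 2 SP/KLF words and 1 NFY word. The *Tbc1d4* start site held 12 CpG and 1 SP/KLF word. Of the 32851 RefSeq start-site sequences of this length, 35.7% held the SP/KLF word and 37.4% the NFY word.

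The pileup is the number of fragments stacked at its summit. The height over the genome background divides the pileup by the lowest, genome-wide background of its list, 5.09 fragments in Foxp3creCREBfl/fl and 8.44 in CREBfl/fl, so that the deeper CREBfl/fl list (1.66 times) can be set beside the other. The relative log2 ratio is Foxp3creCREBfl/fl over CREBfl/fl on the second scale, less its median of 0.15 over 82004 shared regions. Its 95% interval is exact for counting error only and leaves out any variation between mice. A region past the rule differed by at least 2-fold and 5 counting SDs.

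Among the 45 shared regions of the 4 loci, 1 was past the rule on the lower side and 0 on the higher, against 0.117% and 0.0829% of all shared regions. Intervals lay below 0 for 6 regions and above 0 for 5, against 7.88% and 5.47% of all. The median relative log2 ratio was 0.04. Of the Foxp3creCREBfl/fl regions 8 of 58 (13.8%) had no overlap in the CREBfl/fl list, against 6.61% in the whole list, and of the CREBfl/fl regions 6 of 51 (11.8%) had none in the other, against 16.4%. Since the genes were picked with values of these mice known, nothing is read from these shares.

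**Figure D1:**
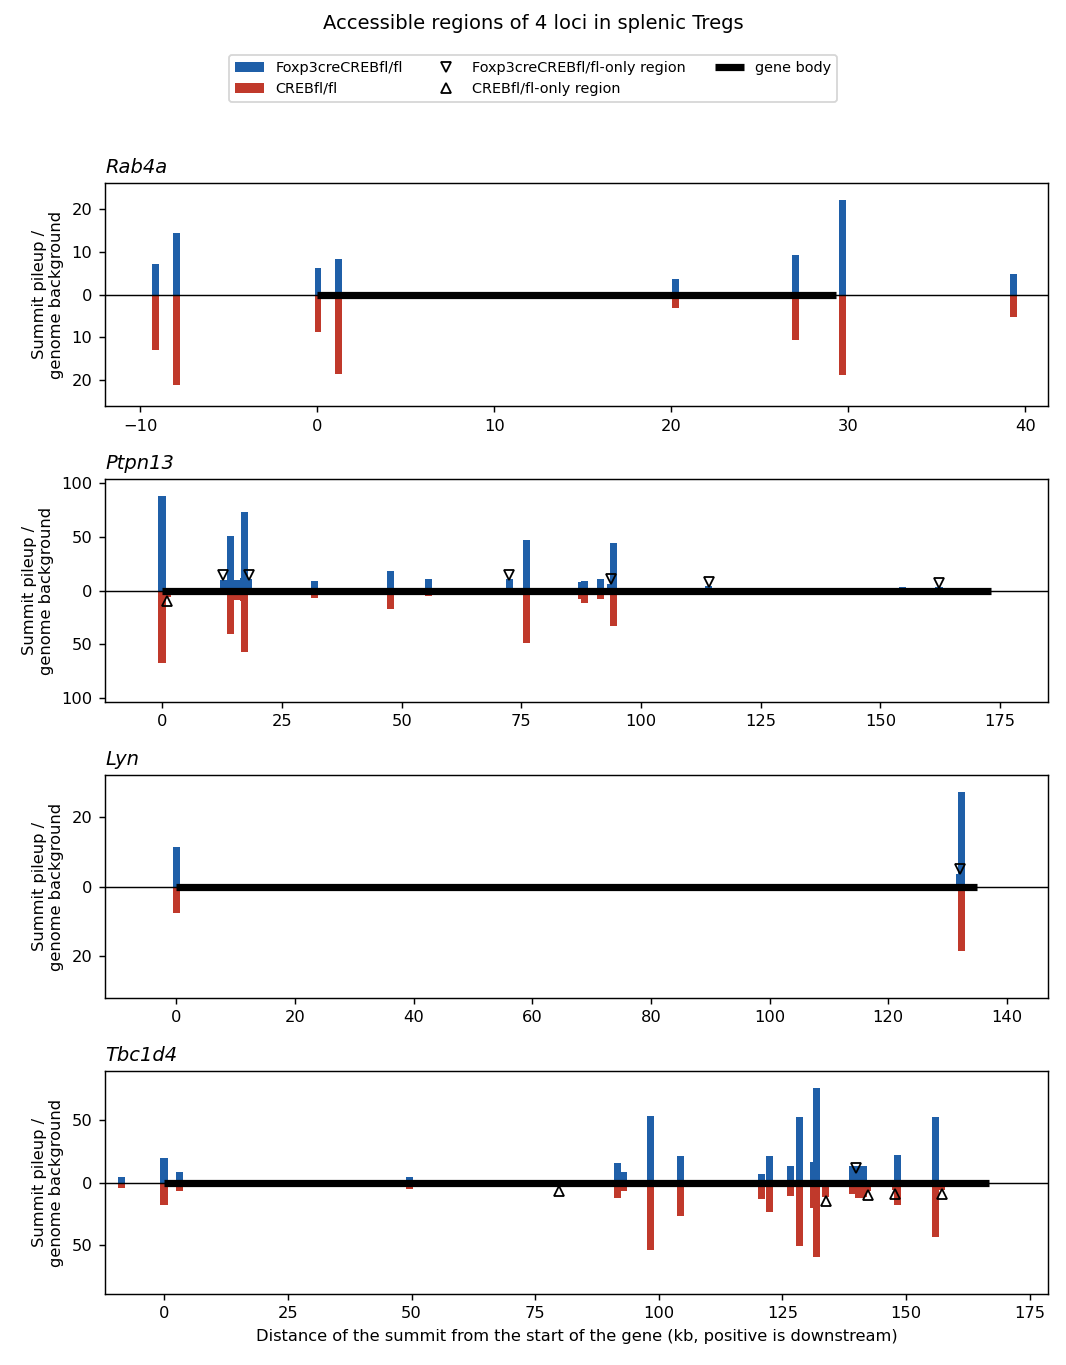
Height of each accessible region, as summit pileup over the genome background of its list, against its distance from the start of the gene in kb, for Foxp3creCREBfl/fl (blue, upward) and CREBfl/fl (red, downward). Triangles mark regions called in 1 list only, and black bars the gene bodies. The *Rab4a* bars at -7.96 and 1.2 kb are longer downward than upward, while the *Ptpn13* start site reaches 87.9 upward and 67.3 downward.

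*Rab4a* (ENSMUSG00000019478.16, chr8:123805985-123835287, + strand, GRCm38, 29.3 kb) had the lowest median of the 4 loci, -0.48 over 8 shared regions, and no region called in 1 list only. When shared regions had to overlap by 0.5 of the length of each, 4 of 10 Foxp3creCREBfl/fl peaks and 2 of 8 CREBfl/fl peaks lost their counterpart. The shares of the whole lists under that overlap were not computed, so nothing is read from these counts. Ratios were below 0 in 6 of the 8 regions. The 4 regions nearest the start were all on the lower side and all the rest of the gene lay between -0.36 and 0.08. The region past the rule lay 1.2 kb downstream of the start in intron 1 (chr8:123807030-123807423), with a pileup of 42 in Foxp3creCREBfl/fl and 157 in CREBfl/fl. Over the genome background these were 8.25 in Foxp3creCREBfl/fl and 18.6 in CREBfl/fl, a relative log2 ratio of -1.32 (-1.85 to -0.82), which is 2.5-fold lower and -5.27 counting SDs from the median. Without the shift by 0.15 it was -1.17 and no longer past the rule. This is the window above with the 2 half-sites.

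Upstream of *Rab4a*, the region at -9.15 kb had a pileup of 36 in Foxp3creCREBfl/fl and 110 in CREBfl/fl, a relative log2 ratio of -1.03 (-1.62 to -0.48). The region at -7.96 kb had 74 in Foxp3creCREBfl/fl and 179 in CREBfl/fl, a ratio of -0.69 (-1.10 to -0.30). Both were nearer to the *Rab4a* start than to any other coding start. At the start site itself, in exon 1, the pileup was 32 in Foxp3creCREBfl/fl and 73 in CREBfl/fl, and the interval of its ratio of -0.61 (-1.26 to 0.01) reached 0. The start-site window was rich in CpG, with 27 in 200 bases, against a median of 3 over all regions.

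In the downstream part of *Rab4a*, heights of both lists were close. The tallest region, at 29.7 kb just past the end of the gene, had 112 fragments in Foxp3creCREBfl/fl and 159 in CREBfl/fl, a relative log2 ratio of 0.08 (-0.29 to 0.43). The region at 27.0 kb in intron 6, whose window matched the CTCF core, had 47 in Foxp3creCREBfl/fl and 90 in CREBfl/fl, a ratio of -0.36 (-0.90 to 0.17). A region at 20.2 kb had 19 in Foxp3creCREBfl/fl and 27 in CREBfl/fl, and one at 39.3 kb, within the neighboring gene *Ccsap*, had 24 in Foxp3creCREBfl/fl and 45 in CREBfl/fl, both with intervals that held 0. All 8 regions also lie within *Gm20388*, a read-through gene model over *Rab4a* and its neighbors. Within 1 Mb of the *Rab4a* window, 160 other shared regions had a median of -0.10 and a range of -0.81 to 0.96, with 0 past the rule in each direction.

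*Ptpn13* (ENSMUSG00000034573.14, chr5:103425192-103598303, + strand, 173 kb) had the most regions called in the Foxp3creCREBfl/fl list only, 6 of its 21 (28.6%), and 1 of 15 CREBfl/fl regions (6.67%) in the other direction. The shares of the whole lists were 6.61% and 16.4%. With -log10 q of at least 5 in the list counted, the Foxp3creCREBfl/fl-only regions were 4. Of its 14 shared regions 10 had a ratio above 0, with a median of 0.18. The start site was the tallest region of the 4 loci, with a pileup of 447 in Foxp3creCREBfl/fl and 568 in CREBfl/fl, which is 87.9 and 67.3 times the genome background of each list. Its relative log2 ratio was 0.24 (0.05 to 0.42). The median and the start-site value were not kept when the authors' fold over the local background was used instead: the median was then -0.08 and the start site 0.01.

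The *Ptpn13* region with the largest ratio lay at 55.5 kb in intron 3. It had 53 fragments in Foxp3creCREBfl/fl and 40 in CREBfl/fl and was the only shared region of the 4 loci with the higher raw pileup in the shallower Foxp3creCREBfl/fl list. The relative log2 ratio was 0.99 (0.37 to 1.62), 3.27 counting SDs from the median and so not past the rule. At 94.2 kb in intron 9, where the gene model *Gm42620* overlaps, the pileup was 225 in Foxp3creCREBfl/fl and 280 in CREBfl/fl, a ratio of 0.27 (0.01 to 0.52), and 0.00 by the authors' fold. The tall regions of intron 1 at 14.2 and 17.1 kb had ratios of 0.19 each, with intervals that held 0. The tall region at 76.1 kb had 242 fragments in Foxp3creCREBfl/fl and 414 in CREBfl/fl, a ratio of -0.19 (-0.43 to 0.04), so the shared regions of the gene did not all lean one way.

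The 6 Foxp3creCREBfl/fl-only regions of *Ptpn13* lay in introns and were small, 93 to 141 bases long. The highest were those at 72.4 kb with 54 fragments, at 18.0 kb with 53 and at 12.7 kb with 52, followed by 93.7 kb with 33, 114 kb with 22 and 162 kb with 18. The region at 72.4 kb stood at 4.56 times its own background and 3238 bp from the nearest CREBfl/fl region. Those at 114 kb in intron 17 and 162 kb in intron 42 were the most isolated, 19742 and 7374 bp from a CREBfl/fl region. Their nearest coding start was that of *Slc10a6*, 90.1 and 42 kb away. The regions at 12.7 and 18.0 kb flank the tall shared regions of intron 1 and were 2.61 and 2.70 times their own background. The single CREBfl/fl-only region, 84 bp from the start-site region, had 52 fragments over a background of 26.9.

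AP-1 words were found in 4 *Ptpn13* windows, 2 of regions called in the Foxp3creCREBfl/fl list only, at 72.4 and 93.7 kb, and 2 of shared regions. Half-sites of the CRE were found at 12.7, 76.1, 93.7 and 114 kb, and 3 of these 4 regions were called in the Foxp3creCREBfl/fl list only. In the whole series, half-sites were in 8.39% of Foxp3creCREBfl/fl-only and 12.8% of shared windows. AP-1 words were in 12.4% and 8.46% of them. With so few windows, nothing is read from these counts. Within 1 Mb of the *Ptpn13* window, 55 other shared regions had a median of -0.06.

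*Lyn* (ENSMUSG00000042228.14, chr4:3678115-3813122, + strand, 135 kb) had 3 regions only, 0.194 per 10 kb, against 1.09 to 1.62 in the other loci. The start site, in exon 1, had a pileup of 58 in Foxp3creCREBfl/fl and 64 in CREBfl/fl, or 11.4 and 7.58 times the genome background of each list, and a relative log2 ratio of 0.44 (-0.10 to 0.97), or 0.59 (0.05 to 1.12) without the shift. The gene model *Gm26857* overlaps it. The tallest region (chr4:3810359-3810548) lay 132 kb downstream, past the end of the coding transcripts of *Lyn* and within a processed transcript of the same gene. The coding start nearest to it was that of *Rps20*, 25.2 kb away. This tallest region had 138 fragments in Foxp3creCREBfl/fl and 155 in CREBfl/fl, a ratio of 0.41 (0.07 to 0.75). A Foxp3creCREBfl/fl-only region with 19 fragments lay 79 bp from it. No region was called between the start and these sites, and none in the introns of the coding transcripts in either list.

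Because *Lyn* is expressed in B cells and myeloid cells, the start sites of their markers were looked at beside it. Summed over 8 B cell genes, start-site heights were 68.2 times the genome background in Foxp3creCREBfl/fl and 57.2 in CREBfl/fl, with 4 and 5 of the 8 genes called and none at *Cd79a* and *Btk*. *Ms4a1*, which encodes CD20, stood at 7.47 in Foxp3creCREBfl/fl and 3.08 in CREBfl/fl, a relative log2 ratio of 1.13. Its heights were the lowest of the B cell genes called in both lists, and no counting interval is given for the markers. Ratios at the other B cell genes were nearer to 0, with 0.16 at *Cd79b*, 0.25 at *Pax5* and -0.07 at *Ebf1*. *Blnk* was called in CREBfl/fl only. Over 7 myeloid genes the sums were 126 in Foxp3creCREBfl/fl and 104 in CREBfl/fl, with 4 called in each list and none at *Lyz2*, *Csf1r* and *Fcer1g*. Relative log2 ratios were 0.25 at *Spi1* and 0.17 at *Cebpa*, but -0.19 at *Itgam* and -0.23 at *Cd14*. The sums given here for each cell type include the overall shift of 0.15 in log2 between the lists. All 6 T cell and Treg genes had a start-site region in both lists, and their sums were 500 in Foxp3creCREBfl/fl and 504 in CREBfl/fl, *Foxp3* itself being at 121 and 116. Relative log2 ratios of these 6 genes ran from -0.28 at *Ctla4* to -0.06 at *Cd4*, with -0.09 at *Foxp3*. Over 5 genes of CD8 T and NK cells the sums were 36.4 and 38.7, with 3 called, and over 4 erythroid genes 89.8 and 82.1, with 2 called. The part of other cells in the *Lyn* values was not tested.

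*Tbc1d4* (ENSMUSG00000033083.16, chr14:101442360-101609191, - strand, 167 kb) had the most regions, 27, of which 21 were shared with a median ratio of -0.08, or 0.07 without the shift. Of its Foxp3creCREBfl/fl regions 1 of 24 (4.17%) had no counterpart, and of its CREBfl/fl regions 5 of 26 (19.2%), which is near the shares of the whole lists, 6.61% and 16.4%. The start site had a pileup of 98 in Foxp3creCREBfl/fl and 154 in CREBfl/fl, 19.3 and 18.2 times the genome background, with a ratio of -0.07 (-0.45 to 0.30), or 0.08 without the shift. Far taller regions lay in introns, up to 382 fragments in Foxp3creCREBfl/fl and 498 in CREBfl/fl at chr14:101476859-101477663 in intron 9, where the ratio was 0.20 (0.00 to 0.39).

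The largest difference of *Tbc1d4* was at 121 kb in intron 7 (chr14:101488150-101488753), with 34 fragments in Foxp3creCREBfl/fl and 111 in CREBfl/fl. The relative log2 ratio was -1.13 (-1.73 to -0.56), -3.98 counting SDs from the median. At 104 kb in intron 3 (chr14:101504574-101505294), 2.52 kb from an alternative coding start, 108 fragments stood in Foxp3creCREBfl/fl and 228 in CREBfl/fl, a ratio of -0.50 (-0.84 to -0.16). At chr14:101477871-101478029 in intron 9 there were 84 in Foxp3creCREBfl/fl and 169 in CREBfl/fl, a ratio of -0.43 (-0.82 to -0.04). Without the shift the interval of this last ratio held 0 (-0.67 to 0.11). Of the other 18 shared regions 17 had intervals that held 0, such as the one at 98.3 kb with 270 fragments in Foxp3creCREBfl/fl and 456 in CREBfl/fl, a ratio of -0.18 (-0.40 to 0.04).

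The 5 CREBfl/fl-only regions of *Tbc1d4* were 94 to 221 bases long and all in introns. The tallest, at 134 kb in intron 10, had 97 fragments over a background of 43.4, or 2.24 times it. Those at 142, 148 and 157 kb had 55, 49 and 49 fragments and lay 671, 50 and 954 bp from a Foxp3creCREBfl/fl region. The one at 79.8 kb in intron 1 had 25 fragments and lay 11715 bp from any. Half-sites were found in the windows at 134 and 157 kb. The single Foxp3creCREBfl/fl-only region, at 140 kb in intron 12, had 43 fragments, 180 bp from a CREBfl/fl region.

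Most of the 59 regions, 48, lay in introns of these genes. Start sites, within 1 kb of one, held 6 (10.2%, against 19.9% of all regions within 1 kb of a coding start). Of the 14 regions called in 1 list, 10 were within 1.4 kb of a region of the other list. That limit lies between the gaps of 1377 and 3238 bp of these same regions. Median lengths were 101 bases in Foxp3creCREBfl/fl-only and 109 in CREBfl/fl-only regions, against 331 in shared ones, much as in the whole series, where the medians were 98, 106 and 339. The pileup stood under 3 times its own background in 4 of the 8 Foxp3creCREBfl/fl-only and 5 of the 6 CREBfl/fl-only regions. Shares over the whole series were not computed for introns, gaps and own background, so nothing is read from those counts. With pileup and background put at the lower depth of the Foxp3creCREBfl/fl list, all 6 CREBfl/fl-only regions still passed the lowest p which that list holds.

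At the edges of the windows, the outermost region of *Rab4a* lay 9.95 kb past the gene (24 fragments in Foxp3creCREBfl/fl, 45 in CREBfl/fl) and the first one left out lay 15.6 kb upstream, with 49 in Foxp3creCREBfl/fl and 117 in CREBfl/fl, a ratio of -0.68. For *Tbc1d4* the outermost region was 8.66 kb from the gene (23 in Foxp3creCREBfl/fl, 37 in CREBfl/fl), and the first left out 13.1 kb from it had 30 in Foxp3creCREBfl/fl and 55 in CREBfl/fl. The flanks of *Ptpn13* and *Lyn* added no region beyond the start site, and the first left out were 20.1 and 13.7 kb from these genes, with ratios of 0.37 and -0.27.

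The full CRE was found in 0 of the 59 windows, against 0.79% of all windows. Half-sites were in 7 windows (11.9%, against 12.2% of all) and AP-1 words in 7 (11.9%, against 8.35%). By class, half-sites were in 3 of 8 Foxp3creCREBfl/fl-only, 2 of 6 CREBfl/fl-only and 2 of 45 shared windows, against 8.39%, 10.4% and 12.8% of such windows in the series. AP-1 words were in 2 of 8, 0 of 6 and 5 of 45, against 12.4%, 6.25% and 8.46%. NFY words were in 12 windows (20.3%, against 21.1%), SP/KLF in 8 (13.6%, against 14.4%), RUNX in 5 (8.47%, against 9.84%) and ETS in 4 (6.78%, against 12.5%). CTCF cores were in 3 (5.08%, against 2.78%), and forkhead and GATA words in 2 each (3.39%, against 3% and 2.79%).

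**Figure D2:**
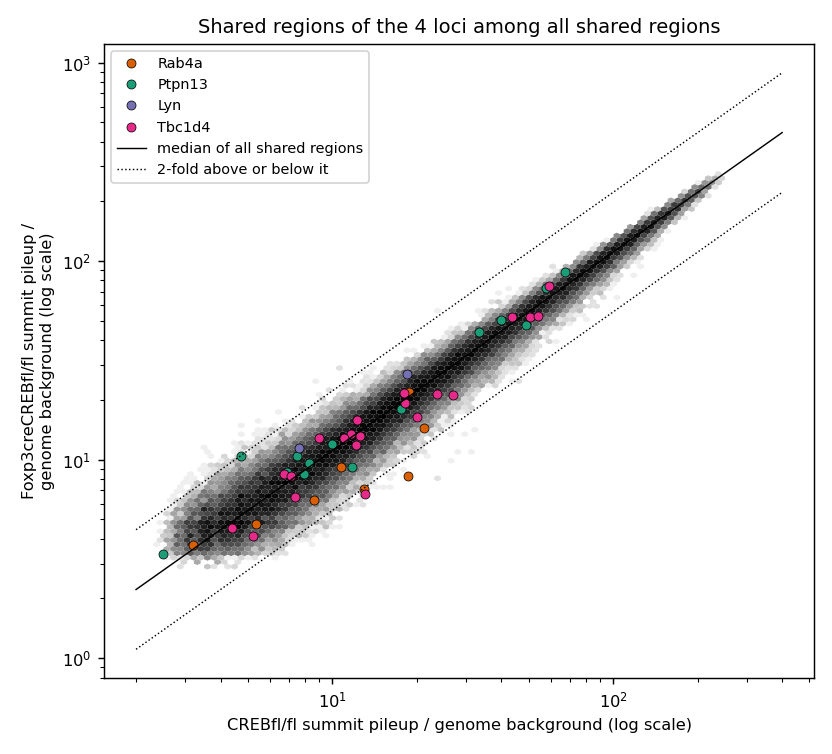
Summit pileup over the genome background in Foxp3creCREBfl/fl (vertical, log scale) against CREBfl/fl (horizontal, log scale) for all shared regions (gray, darker where denser) and the 45 of the 4 loci (colored). The solid line is the median ratio and the dotted lines are 2-fold from it. The *Rab4a* region at 1.2 kb (8.25 in Foxp3creCREBfl/fl, 18.6 in CREBfl/fl), the *Rab4a* region at -9.15 kb and the *Tbc1d4* region at 121 kb lie below the lower dotted line.

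The spread of all shared regions narrows with height, so each ratio was also placed among the regions of like height, in 20 bins. Of the 45 ratios 5 lay outside the central 95% of their bin, 4 below and 1 above. These were the *Rab4a* regions at 1.2 kb (range of its bin -0.69 to 0.60), -9.15 kb (-0.70 to 0.66) and -7.96 kb (-0.62 to 0.51), the *Tbc1d4* region at 121 kb (-0.74 to 0.69) and the *Ptpn13* region at 55.5 kb (-0.77 to 0.78).

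Genes of related function were set beside the 4 loci in the same windows. Among 17 genes of endosomal recycling, such as *Rab5a*, *Rab11a* and the effector *Rabep1*, 91 shared regions had a median of 0.02 and 0 were past the rule in each direction. There were 7 Foxp3creCREBfl/fl-only (6.80%) and 17 CREBfl/fl-only regions (15.3%), near the shares of the whole lists, 6.61% and 16.4%. *Rab4b*, the paralog of *Rab4a*, had 5 shared regions with a median of 0.04, and its start site stood at 193 in Foxp3creCREBfl/fl and 184 in CREBfl/fl, a ratio of -0.08 (-0.20 to 0.04). Among 15 genes of RAB inactivation and glucose transporter traffic, 191 shared regions had a median of 0.01 with 0 past the rule in each direction. Here 21 regions were Foxp3creCREBfl/fl-only (9.42%) and 30 CREBfl/fl-only (13.3%). *Tbc1d1*, the paralog of *Tbc1d4*, had 19 shared regions with a median of 0.03 and a start-site ratio of -0.23 (-0.41 to -0.05). *Rabgap1l*, also a RAB GTPase-activating protein, had the most regions of 1 list there, 6 Foxp3creCREBfl/fl-only and 9 CREBfl/fl-only beside 58 shared.

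Among 14 non-receptor tyrosine phosphatases, 129 shared regions had a median of 0.00, and 0 were past the rule on the lower side and 1 on the higher, in *Ptpn3*. The 12 shared regions of *Ptpn3* had a median of 0.30, above the 0.18 of *Ptpn13*. This list held 16 Foxp3creCREBfl/fl-only (9.94%) and 20 CREBfl/fl-only regions (13.1%), against 6.61% and 16.4% of the whole lists. *Ptpn4* had 4 Foxp3creCREBfl/fl-only regions and 1 CREBfl/fl-only region, while *Ptpn3* had 0 and 1. *Ptpn22*, a brake on T cell receptor signaling, had 2 and 4. Among 14 Src family kinases and their regulators, 229 shared regions had a median of -0.03 with 0 past the rule in each direction. There were 15 Foxp3creCREBfl/fl-only (5.77%) and 58 CREBfl/fl-only regions (20%), against 6.61% and 16.4% of the whole lists. Of the 15 and 58, *Fyn* held 3 and 16 and *Cblb*, a ubiquitin ligase that restrains T cell activation, 2 and 10. The start site of *Lyn* was low beside those of *Fyn* (177 in Foxp3creCREBfl/fl, 149 in CREBfl/fl) and *Lck* (70.6 and 69.3).

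**Figure D3:**
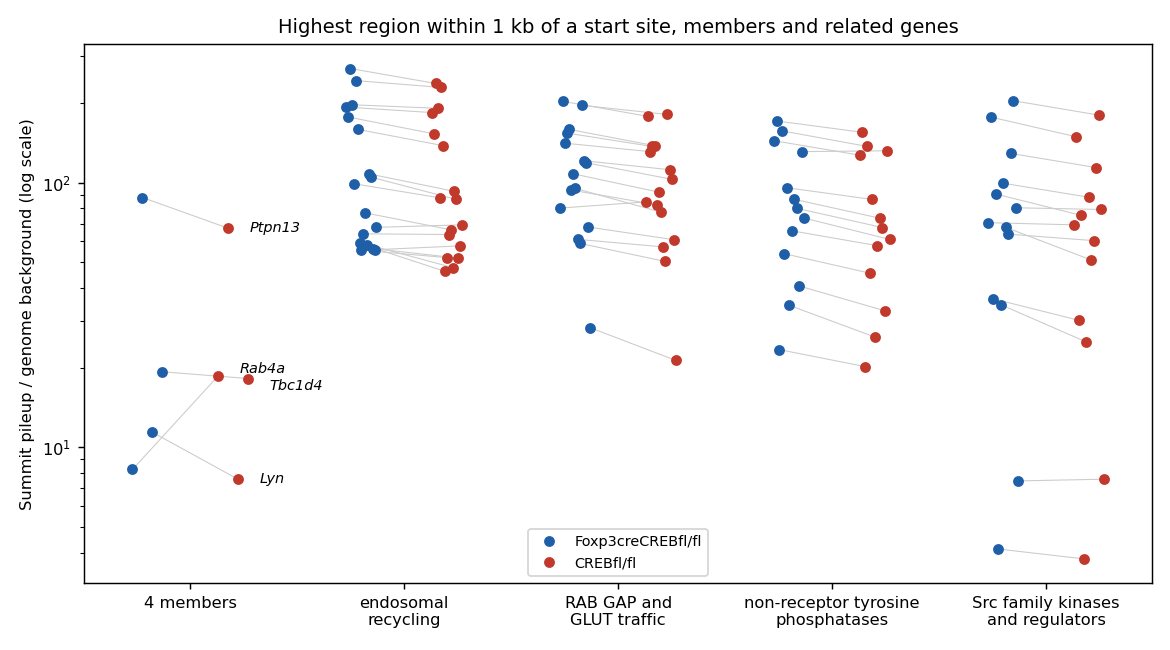
Summit pileup over the genome background (log scale) of the highest region within 1 kb of a start site, in Foxp3creCREBfl/fl (blue, left) and CREBfl/fl (red, right), for the 4 genes and the genes of related function that had one in both lists, joined by gene. For *Rab4a* this is the region at 1.2 kb, 8.25 in Foxp3creCREBfl/fl and 18.6 in CREBfl/fl. Of 57 related genes 52 stood higher in Foxp3creCREBfl/fl, which includes the overall shift of 0.15 in log2 between the lists. Over all shared regions within 1 kb of a coding start the median log2 ratio on this scale was 0.17, so nothing is read from the count.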

How the data were processed

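ATAC-seq of splenic Tregs was deposited as 1 peak list per group, for 3 libraries each by the labels. By the methods the authors sequenced in duplicate, trimmed 75 bp read pairs by Trim Galore, aligned by Bowtie2, removed duplicates, filtered through SAMtools, then used MACS2 for the peaks. Tool versions and how libraries were joined are not given in the sources read here. The deposited fold is a ratio of pileup to background, and the authors wrote p and q values on a -log10 scale. Summit positions come from the same lists.

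Positions were used as GRCm38 with GENCODE M21, although the methods and labels name mm9: of 54050 start sites, 57.2% had a Foxp3creCREBfl/fl peak and 57.8% a CREBfl/fl peak within 1 kb, against 13.0% and 13.9% after a 100 kb shift, and 0 chromosomes had a peak past the end. The methods name calling without local background, yet only 29.6% of Foxp3creCREBfl/fl and 32.6% of CREBfl/fl peaks had the genome-wide one. Whole-number pileups were recovered from fold and p, within 0.002 on the -log10 scale, for 99.97% of Foxp3creCREBfl/fl and 99.94% of CREBfl/fl peaks. Their median was 66 fragments in Foxp3creCREBfl/fl and 90 in CREBfl/fl, and this depth sets the width of the intervals. The highest pileup of a list stands for a joined region, and an overlap of 1 bp makes regions shared.

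Genes, gene lists and rules were chosen with earlier results of these data known. Named are start-site regions, regions past the rule, up to 5 regions of each list only per locus by pileup, up to 5 shared regions per locus with intervals apart from 0, up to 3 genes per related list with most regions of 1 list, and, chosen after their values were seen, paralogs, *Lck* and other regions given for context. Some genes and 1 sequence are not reported here. Python 3.11.15, NumPy 2.4.6, pandas 2.3.3, SciPy 1.17.1 and Matplotlib 3.10.9 were used, and the recovery and intervals were tested on simulated data. Alternatives were other overlaps, windows, q limits, scalings and motif windows.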

Additional observations from a re-analysis of the deposited data

How the results depend on the processing

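No paired analysis was possible because 1 list per group was used, and for the same reason no library could be left out. Of 114 alternative values of the main results 90 were within 1.5 times the main count, or within counting error of the main median, and 24 were not. Some of the 90 could not move, such as Foxp3creCREBfl/fl-only counts scaled to the deeper list. Setting the median of promoter regions to 0 moved every median by the same small amount. The 90 is thus no measure of stability. Without the shift to the median, 0 regions were past the rule on the lower side, against 0.0695% of all shared regions. The *Tbc1d4* median was then 0.07. At 2-fold and 3 counting SDs, 3 regions were on the lower side and 0 on the higher, against 0.329% and 0.278% of all. With the authors' fold the *Ptpn13* median was -0.08, its start site 0.01 and its region at 94.2 kb 0.00, just on the other side of 0.

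For the counts of regions called in 1 list given next, the shares of the whole lists were not computed, so nothing is read from them. With an overlap of at least 0.5 of the length of both regions, Foxp3creCREBfl/fl-only regions numbered 4 in *Rab4a* and 3 in *Tbc1d4*, and CREBfl/fl-only regions 2 in *Rab4a*. The related lists then held 19 Foxp3creCREBfl/fl-only and 27 CREBfl/fl-only regions (endosomal recycling), 45 and 47 (RAB inactivation and glucose transporter traffic), 36 Foxp3creCREBfl/fl-only (phosphatases) and 43 Foxp3creCREBfl/fl-only (Src family). With -log10 q of at least 5 in the list counted, CREBfl/fl-only regions were 0 in *Ptpn13* and 3 in *Tbc1d4*, and Foxp3creCREBfl/fl-only regions 0 in *Lyn*. With that limit in both lists, CREBfl/fl-only regions were 0 in *Ptpn13* and 1 in *Rab4a*, and Foxp3creCREBfl/fl-only regions 4 in *Ptpn13* and 0 in *Lyn*. With 50 kb on each side, Foxp3creCREBfl/fl-only regions were 1 in *Rab4a* and 3 in *Lyn*. With the gene body alone, endosomal recycling held 2 Foxp3creCREBfl/fl-only and 9 CREBfl/fl-only regions, and the phosphatases held 12 CREBfl/fl-only. The scaling of pileup and background to the other depth was added after seeing the data and changed no count of CREBfl/fl-only regions. For Foxp3creCREBfl/fl-only regions this scaling, like that of the pileup alone, goes to the deeper list and could not lower a count. Within 50 bases of the summit, half-sites were in 4 windows (6.78%, against 7.82% of all). Regions of few fragments have wide intervals, and differences of less than about 2-fold there were not detectable at this depth.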
